A study of Mus musculus with 9 samples.

Results

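*Trp53*, its regulators *Mdm2* and *Mdm4*, and 7 of its targets with roles in growth arrest and stress (*Cdkn1a*, *Ccng1*, *Phlda3*, *Trp53inp1*, *Zmat3*, *Btg2* and *Gadd45a*) were followed in 8-cell mouse embryos. These 10 genes were chosen by symbol among the 55335 entries measured in each library, by name and not by a measured threshold, with earlier results of these data known. RNA was sequenced from pools of embryos of ICR mice, an outbred strain, in which siRNA had been injected into zygotes before culture to the 8-cell stage. Control embryos received nontargeting siRNA, MFN1-KD embryos received siRNA against *Mfn1*, which encodes a mitochondrial fusion protein, and H3.3-KD embryos received siRNA against *H3f3a* and *H3f3b*, both of which encode the histone variant H3.3. Each group had 3 libraries. The labels give 5 to 10 embryos and the paper's methods 10 from each group, and whether either figure is per library is not clear. The methods name young and naturally aged females as the source of the mice, and the age used for these libraries is not given in the sources used here. An siRNA lowers a transcript without deleting its gene, and all embryos, controls included, were injected and cultured in vitro.

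p53, the protein of *Trp53*, is a transcription factor that is kept scarce in unstressed cells because MDM2 attaches ubiquitin to it and sends it for degradation. DNA damage, ribosomal stress and other insults stabilise it, largely without any need for more *Trp53* mRNA, and it then switches on genes that stop the cell cycle, repair DNA or bring about cell death. *Mdm2* is itself one of its targets and so closes a negative feedback loop, and mouse embryos without *Mdm2* are known to die around implantation unless *Trp53* is removed as well.

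The upstream sequences of these genes show where p53 half-sites lie, p53 being known to bind a pair of 10-base half-sites. RefSeq promoter windows (300 bases, GRCm38.p6) were at hand for 8 of the 10 genes, and a script searched both strands of the 10 windows of these genes for the p53 half-site consensus with no mismatch. A half-site was found in 5 windows, against 8.36% of all 32851 windows of the same length. With no mismatch allowed, the upstream *Cdkn1a* window alone held 2 half-sites at most 13 bases apart, an arrangement found in 0.0731% of all windows. The 250 bases before the start are printed 5′ to 3′ on the strand of the gene, with half-sites in capitals, for *Cdkn1a* (chr17:29090729-29090978, plus strand) as the pair, for *Mdm2* (chr10:117710759-117711008, minus strand) and *Ccng1* (chr11:40755287-40755536, minus strand) as single half-sites, and for *Phlda3* (chr1:135765835-135766084, plus strand) as the gene with the largest change in H3.3-KD.
Cdkn1a: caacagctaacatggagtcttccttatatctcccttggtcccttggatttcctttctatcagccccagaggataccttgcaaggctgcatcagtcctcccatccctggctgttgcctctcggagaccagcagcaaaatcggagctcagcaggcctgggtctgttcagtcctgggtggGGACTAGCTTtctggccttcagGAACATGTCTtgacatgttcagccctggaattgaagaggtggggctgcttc
Mdm2: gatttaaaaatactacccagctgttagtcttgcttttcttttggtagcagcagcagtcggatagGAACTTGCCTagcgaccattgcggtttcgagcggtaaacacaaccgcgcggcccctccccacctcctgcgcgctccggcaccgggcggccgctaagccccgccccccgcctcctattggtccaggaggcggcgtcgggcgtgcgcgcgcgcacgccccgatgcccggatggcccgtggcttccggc
Ccng1: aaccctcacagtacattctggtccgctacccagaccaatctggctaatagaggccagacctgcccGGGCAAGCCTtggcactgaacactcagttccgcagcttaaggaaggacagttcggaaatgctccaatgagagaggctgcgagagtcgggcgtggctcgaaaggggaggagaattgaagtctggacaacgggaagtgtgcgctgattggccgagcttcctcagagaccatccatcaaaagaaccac
Phlda3: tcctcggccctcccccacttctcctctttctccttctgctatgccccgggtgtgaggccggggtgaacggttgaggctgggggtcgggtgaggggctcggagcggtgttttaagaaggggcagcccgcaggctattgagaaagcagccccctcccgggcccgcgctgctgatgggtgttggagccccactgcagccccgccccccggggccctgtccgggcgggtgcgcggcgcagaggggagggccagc
*Cdkn1a* had 2 windows with different starts, and its half-sites began 73 and 51 bases before the upstream start. The *Mdm2* half-site began 186 bases and the *Ccng1* half-site 185 bases before the start of its own gene. *Trp53* and *Gadd45a* each had a single half-site, 75 and 40 bases before their starts. No half-site lay in the windows of *Phlda3*, *Btg2* or *Mdm4*, and the *Phlda3* bases shown were 71.2% G or C. None lay in the second *Cdkn1a* window (chr17:29093519-29093818) either, which belongs to a start further downstream. Sequence outside the windows was not searched, and half-sites with a mismatch were not marked. The 10 bases right after the *Cdkn1a* half-site at 51 bases, tgacatgttc, differ from the consensus only in the first base. The marked pair therefore need not be the pair that p53 binds. A match describes letters in these windows and no binding was measured.

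Levels are given as FPKM (fragments counted per kilobase of a gene and per library size), as the authors deposited them. Depth cannot be read from these values, so their counting error cannot be estimated, and a value of 0 is called listed at 0. Differences were tested with limma on log2(FPKM + 1) over the 13011 genes that averaged 1 FPKM or more, with all 9 libraries in 1 fit, and p-values were adjusted over all genes tested by the method of Benjamini and Hochberg. A gene is said to rise or fall where its adjusted p was under 0.05. All 10 genes passed the filter on low values, although the control means of *Zmat3* and *Gadd45a* were under 1 FPKM and *Zmat3* passed only through its H3.3-KD libraries. The p-values measure the spread between pools, and in bulk RNA fewer cells with a transcript cannot be told apart from less of it per cell. Both knockdowns were compared with the same controls.

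The knockdowns themselves were checked first. In H3.3-KD *H3f3a* fell by 3.69 on the log2 scale (adjusted p = 7.23e-06, limma) and *H3f3b* by 3.64 (adjusted p = 8.96e-06), and in MFN1-KD *Mfn1* fell by 2.66 (adjusted p = 0.0431), being 22.55 to 51.57 FPKM in control and 1.15 to 9.54 in MFN1-KD. The *Mfn1* call was lost in 10 of 17 alternatives (adjusted p up to 0.158), although over all 17 the value stayed between -3.20 and -2.05. It was lost without control replicates 1 (0.106), 2 (0.14) or 3 (0.152), H3.3-KD replicates 1 (0.0656) or 2 (0.0732) and MFN1-KD replicates 2 (0.0537) or 3 (0.0728). The number of genes above 0 FPKM was 21643 to 22507 in control, 23655 to 24820 in H3.3-KD and 15577 to 20842 in MFN1-KD. Of 10 cumulus and granulosa cell markers, 9 were under 1 FPKM in every library and *Amhr2* was the exception. The summed level of these markers was 16.1 to 29.8 FPKM in control, 38.3 to 67.4 in H3.3-KD and 10.3 to 19.9 in MFN1-KD. Transcripts stored by the oocyte summed to 36 to 45.1, 28.3 to 49.5 and 24.4 to 48.8 FPKM in the same order. Preimplantation embryo markers summed to 249 to 284 FPKM in control, 381 to 769 in H3.3-KD and 262 to 297 in MFN1-KD, with *Sox2* and *Cdx2* under 1 FPKM in every control library. The markers did not move together. *Sall4* (means of 119 FPKM in control and 47.1 in H3.3-KD) and *Nanog* (20.3 and 17.1) were lower in H3.3-KD. The other markers had higher means there, with *Pou5f1* at 7.24 and 262. The part of these shifts in the results was not tested.

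In control embryos the growth arrest arm was present but uneven. *Cdkn1a*, which encodes the cyclin-dependent kinase inhibitor p21, had the highest mean at 96.2 ± 24.2 FPKM (SD, n = 3), and its libraries overlapped those of *Mdm4* at 81.0 ± 26.2. *Mdm2* (23.3 ± 9.06), *Trp53inp1* (15.8 ± 5.67) and *Ccng1* (13 ± 5.51) followed, each overlapping its neighbour. Below them every library of *Trp53* (9.04 ± 0.363) lay above every library of *Phlda3* (3.43 ± 1.04), and those above *Btg2* (1.91 ± 0.331). *Gadd45a* (0.84 ± 0.596) and *Zmat3* (0.707 ± 0.329) were lowest and overlapped. Among the genes tested, *Cdkn1a* sat between the percentiles 87.5 and 91.4 of the control libraries and *Zmat3* between 6.59 and 12.4.

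H3.3-KD against control asked how embryos short of H3.3 differed at these genes. *Phlda3*, *Zmat3*, *Btg2* and *Mdm2* rose and *Trp53inp1* fell, while *Trp53*, *Cdkn1a*, *Ccng1*, *Mdm4* and *Gadd45a* did not pass the test. Over all genes tested, 21.8% rose and 9.12% fell, so the 4 rises and 1 fall among 10 genes stand against a background in which many genes moved. Of the 4 rises 1, *Zmat3*, passed the filter only through its H3.3-KD libraries, which favoured a rise. The same 5 genes were the ones whose H3.3-KD libraries did not overlap control, which 34.5% of all genes did upward and 18.9% downward. At the threshold of the study (a change above 2-fold with p under 0.05 before adjustment), again 4 rose and 1 fell, against 33.3% of all genes in either direction. The median log2 fold change was 0.94 for the 10 genes and 0.26 for all genes, and 8 of the 10 lay above the latter. Scaling libraries by median ratios moved the median of all genes to 0.00, so for the 5 genes that passed the size relative to 0.26 is given as well.

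**Figure D1:**
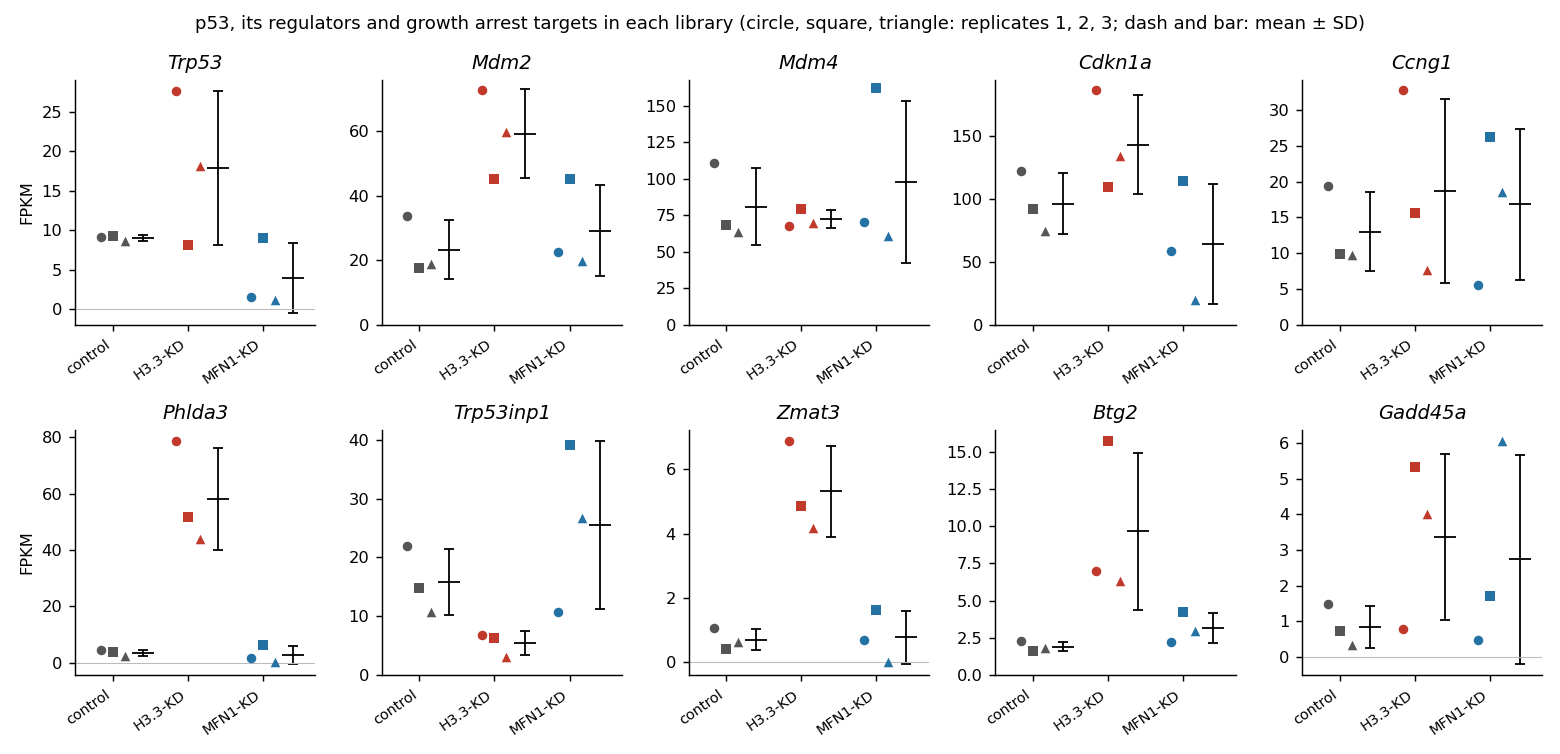
FPKM of each gene (y axis, linear, its own scale per panel) in the 3 control, 3 H3.3-KD and 3 MFN1-KD libraries, with symbols for replicates and a dash and bar for the mean ± SD. *Phlda3* was 43.92 to 78.56 in H3.3-KD against 2.30 to 4.35 in control, whereas the *Cdkn1a* libraries of the groups overlapped.

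*Trp53* (chr11:69580359-69591873, plus strand, GRCm38) was measured at 9.19, 9.31 and 8.63 FPKM in control and at 27.59, 8.15 and 18.06 in H3.3-KD. The control libraries were almost level, with a coefficient of variation of 4.01%, and the H3.3-KD libraries spread around them, replicate 2 below and the others above. The mean was 17.9 ± 9.72 in H3.3-KD, and the fitted difference of 0.77 (95% interval -0.54 to 2.07, adjusted p = 0.351) did not pass. *Trp53-ps*, a processed pseudogene of *Trp53*, was listed at no more than 0.08 FPKM in any library.

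*Mdm2* (chr10:117688875-117710758, minus strand), the ubiquitin ligase that holds p53 down and a p53 target itself, was measured at 33.79, 17.57 and 18.69 FPKM in control and at 72.88, 45.35 and 59.66 in H3.3-KD. All 3 H3.3-KD libraries lay above all 3 controls, and the means differed 2.54-fold. The fitted rise was 1.34 (SE 0.37, adjusted p = 0.0206, limma), or 1.08 above the median of all genes. It no longer passed without control replicate 2 (adjusted p = 0.0839), control replicate 3 (0.083), H3.3-KD replicate 1 (0.0699) or H3.3-KD replicate 3 (0.0566), nor with upper-quartile scaling (0.0621) or without the filter (0.0624). *Mdm4* (chr1:132959484-133030561, minus strand), whose product binds and masks the activation domain of p53, was 111.12, 68.44 and 63.47 FPKM in control and 67.76, 79.11 and 70.03 in H3.3-KD. These groups overlapped fully, with a fitted difference of -0.12 (95% interval -0.92 to 0.69, adjusted p = 0.832). *Mdm4-ps*, a processed pseudogene, was listed at 0.29 to 5.11 FPKM, and reads shared between the copies could have been split.

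The balance of the p53 regulators within a library does not depend on how libraries are scaled, and this ratio was chosen after the values were seen. *Mdm2* stood at 0.304, 0.257 and 0.294 of *Mdm4* in control and at 1.08, 0.573 and 0.852 in H3.3-KD. The control ratios lay close together and each H3.3-KD ratio exceeded all of them, with means of 0.285 ± 0.025 and 0.834 ± 0.252 (SD, n = 3, exact two-sided permutation p = 0.10, the smallest that 3 libraries against 3 allow). In MFN1-KD the ratio was 0.319, 0.28 and 0.322 (exact permutation p = 0.4, n = 3).

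*Phlda3* (chr1:135766119-135769136, plus strand) encodes a small pleckstrin homology domain protein that competes with Akt for membrane lipids. It was measured at 4.35, 3.64 and 2.30 FPKM in control and at 78.56, 51.78 and 43.92 in H3.3-KD. The lowest H3.3-KD library exceeded the highest control by a wide margin, and the means, 3.43 ± 1.04 and 58.1 ± 18.2, differed 16.9-fold. The fitted rise was 3.72 (SE 0.56, 95% interval 2.48 to 4.96, adjusted p = 0.00097, limma), or 3.46 above the median of all genes. Among all genes tested in a library, *Phlda3* sat at the percentiles 39.7, 39.3 and 30.7 in control and at 86.0, 80.8 and 79.0 in H3.3-KD.

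*Cdkn1a* (chr17:29090976-29100727, plus strand), the gene with the pair of exact half-sites, was measured at 122.27, 91.96 and 74.44 FPKM in control and at 186.06, 109.49 and 134.00 in H3.3-KD. The H3.3-KD mean was 1.49 times the control mean, but the groups overlapped and the difference of 0.56 (95% interval -0.60 to 1.72, adjusted p = 0.446) did not pass. The interval leaves room for a rise of over 2-fold as well as for a fall. Set against *Cdkn1a* in the same library, *Phlda3* stood at 0.0356, 0.0396 and 0.0309 in control and at 0.422, 0.473 and 0.328 in H3.3-KD (exact permutation p = 0.10, n = 3, a ratio chosen after the values were seen). In MFN1-KD this ratio was 0.0284, 0.0545 and 0.0123 (exact permutation p = 0.7, n = 3).

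**Figure D2:**
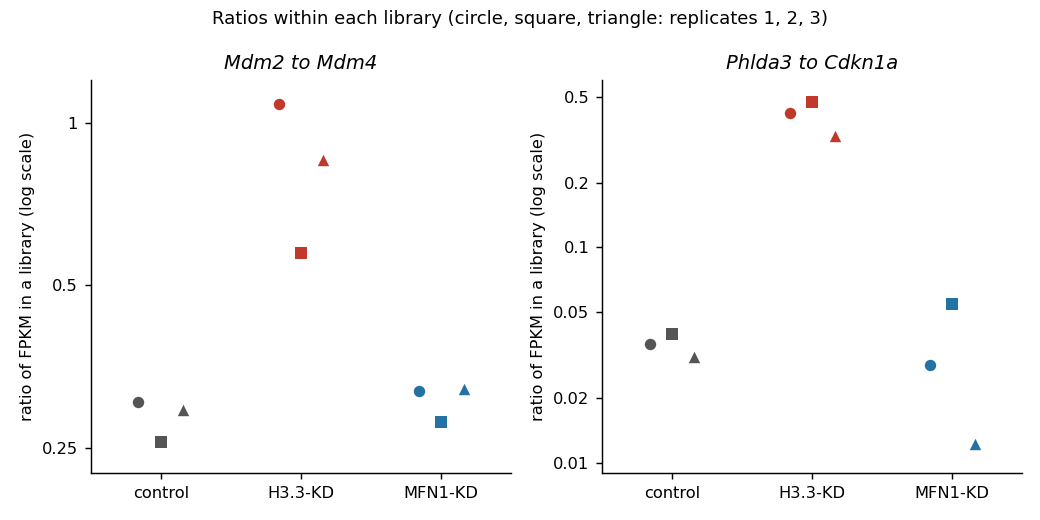
Ratio of FPKM within each library (log y axis) of *Mdm2* to *Mdm4* and of *Phlda3* to *Cdkn1a*, 1 point per library of each group. H3.3-KD libraries lay above all others, at 0.573 to 1.08 for the first ratio and 0.328 to 0.473 for the second.

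*Zmat3* (chr3:32334792-32366014, minus strand), a zinc finger RNA-binding protein that acts on splicing and mRNA stability, was measured at 1.06, 0.41 and 0.65 FPKM in control and at 6.87, 4.87 and 4.18 in H3.3-KD. The means differed 7.51-fold with no overlap, and the fitted rise was 1.88 (SE 0.41, adjusted p = 0.00619), smaller than the ratio of means because 1 FPKM is added before the logarithm. *Zmat3* averaged 0.707 FPKM in control and 0.78 in MFN1-KD, so it entered the test only through the group where it was high, and without the filter its adjusted p was 0.019. *Btg2* (chr1:134075170-134079120, minus strand), an antiproliferative protein that recruits the CCR4-NOT deadenylase to mRNAs, was at 2.27, 1.62 and 1.84 FPKM in control and at 6.97, 15.76 and 6.31 in H3.3-KD. Replicate 2 of H3.3-KD was the highest, all 3 lay above control, and the fitted rise was 1.78 (SE 0.39, adjusted p = 0.00667). Relative to the median of all genes these rises were 1.62 and 1.51.

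*Trp53inp1* (chr4:11156431-11174379, plus strand), a stress-induced nuclear protein that promotes p53 phosphorylation and autophagy, went the other way. It was measured at 21.89, 14.76 and 10.69 FPKM in control and at 6.75, 6.35 and 3.12 in H3.3-KD, with no overlap. It fell by 1.39 on the log2 scale (SE 0.48, adjusted p = 0.0486), or by 1.65 relative to all genes. The call rested on a value close to the threshold, and leaving out control replicates 1, 2 or 3 gave adjusted p-values of 0.153, 0.113 and 0.0684, and leaving out H3.3-KD replicates 1, 2 or 3 gave 0.0652, 0.0814 and 0.154.

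*Ccng1* (chr11:40748552-40755311, minus strand), which encodes cyclin G1 and carries a half-site upstream, was measured at 19.33, 9.87 and 9.69 FPKM in control and at 32.87, 15.54 and 7.68 in H3.3-KD. The H3.3-KD libraries reached both above and below the controls (0.35, 95% interval -0.99 to 1.69, adjusted p = 0.699), and without H3.3-KD replicate 1 the sign turned to -0.15. *Gadd45a* (chr6:67035096-67037457, minus strand), a stress protein that binds PCNA and p21, was at 1.49, 0.71 and 0.32 FPKM in control and at 0.78, 5.34 and 4 in H3.3-KD. Of its H3.3-KD libraries 2 lay above control and replicate 1 lay within it (1.11, 95% interval -0.28 to 2.5, adjusted p = 0.208). *E230016M11Rik*, which overlaps *Gadd45a* on the other strand, was listed at 0.48 FPKM at most, and antisense genes also overlap *Mdm4* and *Cdkn1a*. The partner of *Mdm4*, *Gm29257*, was listed at 2.23 to 8.18 FPKM and was highest in H3.3-KD replicate 3. The strand setting of the counting is not given in the sources used here, so reads of such partners cannot be told apart.

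**Figure D3:**
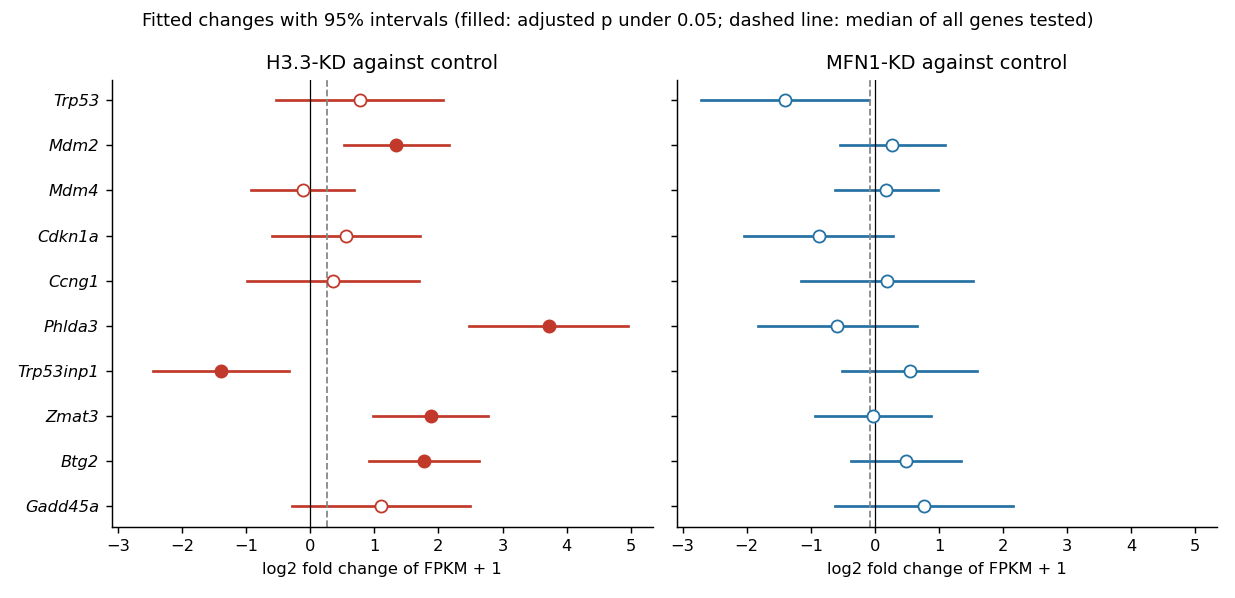
Fitted log2 fold change of FPKM + 1 (x axis) of the 10 genes with 95% intervals for each knockdown against control, filled where the adjusted p was under 0.05, with a dashed line at the median of all genes tested (0.26 and -0.08). In H3.3-KD 5 points are filled, from *Trp53inp1* at -1.39 to *Phlda3* at 3.72, and in MFN1-KD none is.

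Over all genes, fold changes in H3.3-KD varied with the base composition of transcripts, from a median of -0.29 in the lowest of 10 bins of GC content to 1.10 in the highest. *Phlda3* transcripts were 62.6% G or C, in the highest bin, and *Phlda3* stood 2.62 above that median. *Zmat3* (47.6%), *Btg2* (49.7%) and *Mdm2* (46.2%) stood 1.62, 1.46 and 1.17 above theirs, and *Trp53inp1* (38.8%) stood at -1.10. *Cdkn1a* (54.4%) and *Trp53* (53.3%) came close to theirs, at -0.07 and 0.13. With the trend over GC content and length taken out of each library, *Phlda3*, *Zmat3* and *Btg2* still rose (*Btg2* by 1.14), while *Mdm2* (0.87, adjusted p = 0.0695) and *Trp53inp1* (0.0678) did not pass and the values of *Trp53* and *Cdkn1a* turned to -0.14 and -0.23.

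In MFN1-KD none of the 10 genes passed the test, against 1.15% of all genes that rose and 2.20% that fell. An unadjusted p under 0.05 was reached by 1 of the 10, *Trp53*, against 23.2% of all genes in either direction. The study's threshold likewise took *Trp53* alone, as lower, against 14.1% of all genes. Every gene's MFN1-KD libraries overlapped its controls, while 11.4% of all genes lay wholly above and 16.8% wholly below. The median log2 fold change of the 10 genes was 0.18, beside -0.08 for all genes.

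*Trp53* was measured at 1.52, 9.02 and 1.16 FPKM in MFN1-KD. Replicates 1 and 3 lay far below the controls and replicate 2 lay level with them (-1.40, 95% interval -2.71 to -0.10, unadjusted p = 0.0374 and adjusted p = 0.185, limma). Without replicate 2 the value was -2.11 and passed (adjusted p = 0.0397). *Cdkn1a* showed the same order of libraries, at 58.37, 114.12 and 19.48 FPKM, with replicate 3 far below and replicate 2 within the controls (-0.88, 95% interval -2.04 to 0.28, adjusted p = 0.349), and without replicate 3 its value was -0.20.

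Replicate 2 of MFN1-KD was also the highest of its group for *Mdm2* (22.55, 45.31 and 19.63 FPKM), for *Mdm4* (70.62, 161.97 and 60.98) and for *Phlda3* (1.66, 6.22 and 0.24). It was highest again for *Trp53inp1* (10.65, 39.15 and 26.75), *Ccng1* (5.52, 26.24 and 18.60), *Zmat3* (0.70, 1.64 and listed at 0) and *Btg2* (2.22, 4.24 and 2.97). *Gadd45a* alone peaked in replicate 3, at 0.47, 1.70 and 6.06 FPKM. Genes above 0 FPKM were also most numerous in replicate 2 (20842) and fewest in replicate 3 (15577), and the part of this in the values was not tested. Adjusted p-values of the other 8 genes ran from 0.485 for *Btg2* to 0.982 for *Zmat3*.

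The difference between the knockdowns was tested directly. *Phlda3* (4.32, SE 0.56, adjusted p = 0.000313), *Trp53* (2.17, adjusted p = 0.0149), *Zmat3* (1.91, adjusted p = 0.00432), *Btg2* (1.29, adjusted p = 0.0236) and *Mdm2* (1.07, adjusted p = 0.0437) were higher in H3.3-KD than in MFN1-KD, and *Trp53inp1* was lower (-1.93, adjusted p = 0.00959). Over all genes 27.6% were higher and 11.0% lower in this comparison, and *Zmat3* had passed the filter only through its H3.3-KD libraries. *Trp53* passed although replicate 2 of H3.3-KD (8.15 FPKM) lay below replicate 2 of MFN1-KD (9.02), and its call was lost without H3.3-KD replicate 1 (adjusted p = 0.0581) and with the GC and length trend removed (1.12, adjusted p = 0.148). *Btg2* was lost without H3.3-KD replicate 2 (0.1) or MFN1-KD replicate 1 (0.0708), with the trend removed (0.47, adjusted p = 0.345), with median-ratio scaling (0.0597), without the filter (0.0565) and with only the 6 libraries compared (0.0602). *Mdm2* was lost in 12 of 17 alternatives, which left its adjusted p at 0.0533 to 0.134 without any 1 of the H3.3-KD libraries, at 0.115 without MFN1-KD replicate 1, at 0.114 without MFN1-KD replicate 3, and at 0.0571 and 0.06 without control replicates 2 and 3. *Cdkn1a* just missed (1.44, 95% interval 0.28 to 2.60, adjusted p = 0.0511) and passed in 4 of 17 alternatives, among them without MFN1-KD replicate 2 (0.00755). Its value dropped to 0.77 (0.108) when replicate 3 of MFN1-KD was left out and to 0.22 (0.736) with the trend removed. *Gadd45a* (0.34), *Ccng1* (0.16) and *Mdm4* (-0.30) did not pass.

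Genes whose levels ran most like *Cdkn1a* were sought among 5932 genes that averaged 10 FPKM or more, by Pearson's r of log2(FPKM + 1) over the 9 libraries. *Tbc1d20* (r = 0.982), *Tpm3* (0.972), *Nelfcd* (0.961), *Orc2* (0.961) and *Cyth2* (0.957) came first. Among the p53 genes r with *Cdkn1a* was 0.9 for *Trp53*, 0.79 for *Phlda3*, 0.77 for *Zmat3* and 0.72 for *Mdm2*, and it was lowest for *Gadd45a* (-0.29) and *Trp53inp1* (-0.42). These points share libraries and their depth, and the values describe likeness only.

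The wider pathway was read from lists of known genes. Regulators of p53 stability and activity were split in H3.3-KD, with 2 of 17 tested genes higher and 6 lower and a median of -0.09, where 21.8% of all genes were higher and 9.12% lower with a median of 0.26. *Kat5*, an acetyltransferase that modifies p53 and chromatin, rose from 6.28, 3.21 and 3.57 FPKM to 48.54, 52.57 and 44.79 (3.25, SE 0.32, adjusted p = 0.000141). *Atm*, the kinase that signals double-strand breaks, fell by 1.77 (adjusted p = 0.000711), and *Ep300*, a coactivator acetyltransferase, fell by 1.42 (adjusted p = 0.00719). *Rpl5*, a ribosomal protein that restrains MDM2 under ribosomal stress, was 1024.35 to 1079.14 FPKM in control and 333.19 to 468.62 in H3.3-KD and fell by 1.35 (adjusted p = 0.000818). Reads of *Rpl5* may be split among its copies, of which *Rpl5-ps1* and *Rpl5-ps2* were listed at 1.08 to 2.83 FPKM.

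Of the 11 apoptotic targets of p53 tested in H3.3-KD, 6 rose and none fell, against 21.8% and 9.12% of all genes, with a median of 0.96 beside 0.26 for all genes. *Bbc3*, which encodes the BH3-only protein PUMA, went from 0.28, 0.23 and 0.19 FPKM to 9.73, 9.36 and 17.76 (3.37, adjusted p = 0.000205). It averaged 0.483 FPKM in MFN1-KD and so entered the test only through the H3.3-KD libraries, and with the GC and length trend removed its rise was 1.83. *Pmaip1*, which encodes the BH3-only protein NOXA, rose by 1.92 (adjusted p = 0.011, and 0.0522 without control replicate 2), the endoplasmic reticulum protein gene *Ei24* by 2.79 (adjusted p = 0.000302) and the nuclease gene *Aen* by 2.12 (adjusted p = 0.000861). Of 18 repair and metabolic targets tested 8 rose and none fell, against the same 21.8% and 9.12% of all genes, with a median of 0.90 beside 0.26. *Ddit4*, an inhibitor of mTORC1 that other stresses also induce, went from 2.89, 1.31 and 1.88 FPKM to 285.13, 384.85 and 878.87 (7.28, adjusted p = 7.23e-06). *Sesn2*, a leucine sensor upstream of mTORC1, rose by 5.17 (adjusted p = 0.000203), the kinase gene *Plk2* by 2.69 (adjusted p = 0.000613) and *Gtse1*, whose product binds and restrains p53, by 2.06 (adjusted p = 0.00221, and by 1.12 with the GC and length trend removed).

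The machinery on which p21 acts, directly or through other proteins, was listed as cyclins, kinases, pocket proteins, E2F factors and *Pcna*. Of 14 tested, 7 rose in H3.3-KD, *E2f1* and *E2f4* among them, and none fell. Over all genes 21.8% rose and 9.12% fell, and the median was 0.83 against 0.26. *E2f1*, the transcription factor of S phase entry, was 1.82 to 2.75 FPKM in control and rose to between 10.47 and 19.09 (2.23, adjusted p = 0.000981, and 0.0741 with the GC and length trend removed). *Ccne1* (1.38, adjusted p = 0.00433), a cyclin of S phase entry, and the G1 cyclin *Ccnd1* (1.91, adjusted p = 0.0079) with its kinase partner *Cdk4* (1.08, adjusted p = 0.00803) rose too. *Cdk4* did not pass with upper-quartile scaling (0.0551) or with the trend removed (0.153), which also brought *Ccne1* to 0.76 and *Ccnd1* to 1.19. Of 17 cell cycle genes that p21 represses through the DREAM complex, 5 rose and 1 fell, shares near the 21.8% and 9.12% of all genes, with a median of 0.48. The cell cycle transcription factor gene *Mybl2* (1.92, adjusted p = 0.000382) and the mitotic kinase genes *Aurka* (2.15, adjusted p = 0.000443) and *Plk1* (2.32, adjusted p = 0.00443) were among the rises, and removal of the GC and length trend brought *Mybl2* to 0.79 and *Plk1* to 1.37. *Birc5*, which encodes survivin, fell by 0.85 (adjusted p = 0.00901).

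Of 12 tested paralogs of the 10 genes, 6 rose in H3.3-KD and none fell, against 21.8% and 9.12% of all genes, with a median of 1.26 beside 0.26. *Btg1*, the closest relative of *Btg2*, went from 88.76, 74.48 and 109.55 FPKM to 324.35, 276.98 and 306.92 (1.74, adjusted p = 0.000556). *Trp53inp2* rose by 1.30 (adjusted p = 0.00654) where *Trp53inp1* fell, and it did not pass with the GC and length trend removed (0.208). *Phlda1* rose by 2.48 (adjusted p = 0.0121), having entered the test only through the H3.3-KD libraries, and *Btg3* by 1.22 (adjusted p = 0.0198). The *Phlda1* call was lost without control replicate 3 (0.0538) and with the GC and length trend removed (1.38, adjusted p = 0.144). The *Btg3* call was lost with that trend removed (0.73, adjusted p = 0.13), with median-ratio scaling (0.0729), without the filter (0.0577), without control replicates 2 (0.0617) or 3 (0.0838) and without H3.3-KD replicates 2 (0.0619) or 3 (0.055).

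**Figure D4:**
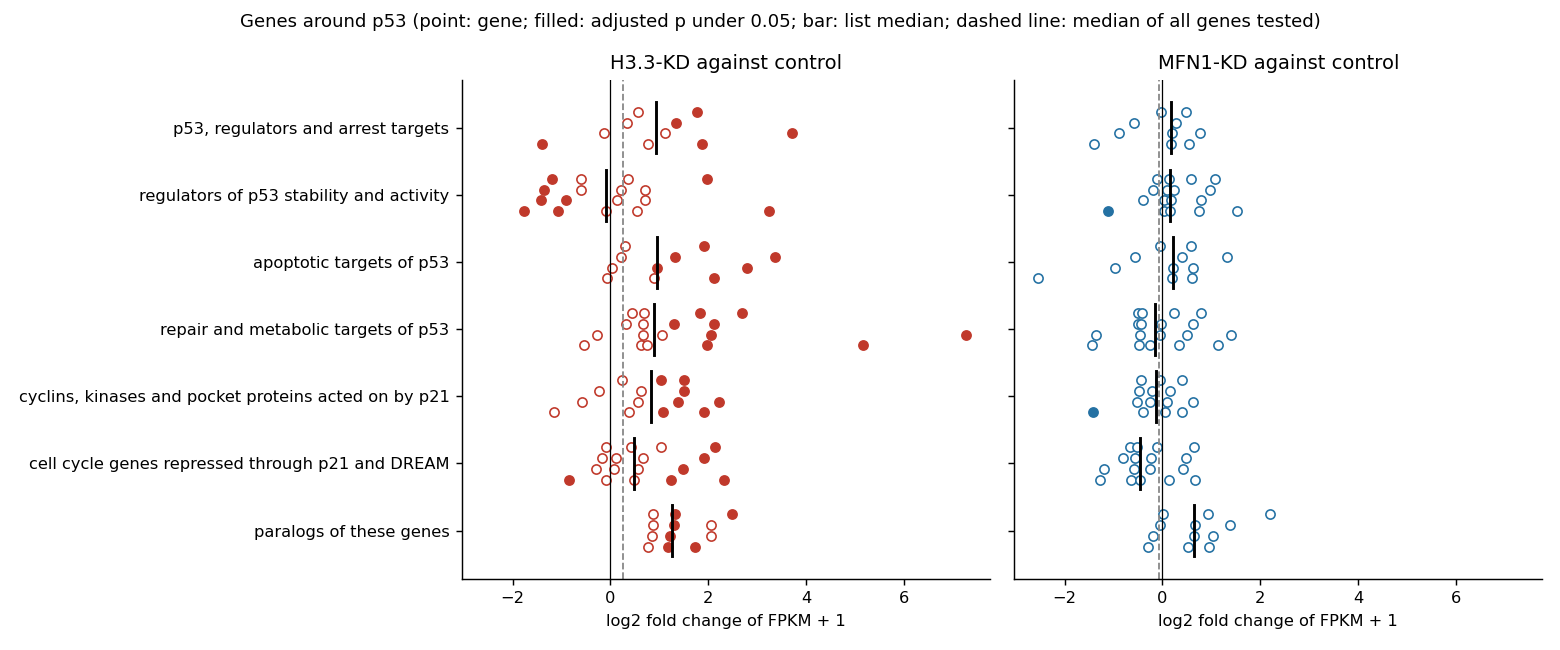
Fitted log2 fold change of FPKM + 1 (x axis) of every tested gene of the p53 lists (rows) in H3.3-KD and MFN1-KD against control, filled where the adjusted p was under 0.05, with a bar at the list median and a dashed line at the median of all genes. *Ddit4* is the point at 7.28, and in MFN1-KD *Chek2* at -1.11 and *Cdk1* at -1.42 are the filled points.

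In MFN1-KD these 6 lists held 2 calls, both lower, which is 2.25% of their 89 tested genes against 2.20% of all genes. *Chek2*, a checkpoint kinase that phosphorylates p53, was 56.42, 70.11 and 52.08 FPKM in control and 23.61, 31.80 and 25.90 in MFN1-KD, and it fell by 1.11 (adjusted p = 0.0458). *Cdk1*, the kinase of mitotic entry, was 298.67 to 328.36 FPKM in control and 81.22 to 140.92 in MFN1-KD and fell by 1.42 (adjusted p = 0.0306). Both were higher in H3.3-KD than in MFN1-KD (*Chek2* adjusted p = 0.000677, *Cdk1* adjusted p = 0.00017). The MFN1-KD calls were fragile, with *Chek2* passing in 5 and *Cdk1* in 9 of 17 alternatives. Adjusted p-values of *Chek2* were 0.0846, 0.192 and 0.152 without control replicates 1, 2 and 3, 0.0673, 0.0706 and 0.0523 without those of H3.3-KD, and 0.0777 and 0.0733 without MFN1-KD replicates 1 and 3. For *Cdk1* they were 0.0618, 0.134 and 0.135 without control replicates 1, 2 and 3, and 0.0525 and 0.0626 without H3.3-KD replicates 1 and 2. The list medians in MFN1-KD were 0.16 for regulators, 0.22 for apoptotic targets, -0.14 for repair and metabolic targets, -0.14 for the machinery acted on by p21, -0.45 for cell cycle genes repressed through p21 and 0.66 for paralogs.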

How the data were processed

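RNA-seq libraries were made by the authors with Smart-Seq2 (oligo-dT primed cDNA, amplified by PCR). The submitters' processing notes name cutadapt 1.16, STAR and the mouse build mm10. The authors deposited FPKM values, rounded to 2 decimals, per gene symbol, and the program and annotation behind them are not given in the sources used here. Counts and depth were not used here, so the Deseq2 test of the study could not be run and no confidence interval from counts is given. The 13011 genes that averaged 1 FPKM or more were kept. A linear model without covariates was fitted to log2(FPKM + 1) in limma 3.58.1 (trend and robust options) under R 4.3.3. The same model was also run on simulated data, and no result here rests on that run. The alternatives were median-ratio or upper-quartile scaling, a pseudocount of 0.1, no filter, a minimum average of 10 FPKM, only the 6 libraries compared, a replicate block, removal of each library's GC and length trend (splines with 5 degrees of freedom, for the 98.1% of genes with both values in GENCODE M21, GRCm38), each library left out in turn, and the study's threshold.

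The 10 genes and the lists were chosen with earlier results of these data known. From each list the rule named up to 4 genes per knockdown with the smallest adjusted p under 0.05, and the largest change against the list's direction. The lists were regulators of p53, apoptotic targets, repair and metabolic targets, machinery acted on by p21, cell cycle genes repressed through p21, paralogs, and 3 marker lists (cumulus and granulosa cells, oocyte-stored transcripts, preimplantation embryo). Promoter sequences are from RefSeq (GRCm38.p6).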

Additional observations from a re-analysis of the deposited data

How the results depend on the processing

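Of 987 values of single genes under the alternatives, 878 kept their direction and side of the threshold. Another 82 no longer passed, 5 newly passed and 22 changed sign, none of these 22 having passed before. The filter settings, the fit to only 6 libraries, the replicate block and leaving out a library of the group not compared cannot change a fold change. The 878 also include genes that passed neither in the main fit nor under the alternative. *Phlda3* (adjusted p 0.000156 to 0.00777) and *Btg2* (0.0048 to 0.0414) rose in H3.3-KD under every alternative run, and *Zmat3* did so except with a pseudocount of 0.1 (0.0566). The 5 calls of the 10 genes in H3.3-KD became 3 with a pseudocount of 0.1, 3 without the filter, 3 of the 7 genes left at a mean of at least 10 FPKM, 3 with the GC and length trend removed, 4 with a replicate block and 3 to 5 with 1 library left out. The 0 calls in MFN1-KD became 1 at the study's threshold and stayed at 0 to 1 with 1 library left out. The 6 calls between the knockdowns became 3 with the trend removed and 4 to 7 with 1 library left out. With the trend removed, values in H3.3-KD turned to -0.14 for *Trp53* and -0.23 for *Cdkn1a*, those in MFN1-KD to -0.10 for *Mdm4* and -0.02 for *Ccng1*, and the difference between knockdowns to -0.23 for *Gadd45a*. Upper-quartile scaling, which moved the median of all genes in MFN1-KD from -0.08 to -0.44, gave -0.19 for *Mdm2*, -0.30 for *Mdm4* and -0.27 for *Ccng1* there, and median-ratio scaling gave -0.21 for *Ccng1* between the knockdowns. With 1 library left out, the range in H3.3-KD was -0.27 to 0.13 for *Mdm4* and -0.15 to 0.83 for *Ccng1*. In MFN1-KD it was -0.08 to 0.56 for *Mdm2*, -0.25 to 0.44 for *Mdm4*, -0.24 to 0.79 for *Ccng1*, -1.26 to 0.01 for *Phlda3* and -0.37 to 0.33 for *Zmat3*. Between the knockdowns it was -0.56 to 0.13 for *Mdm4*, -0.45 to 0.64 for *Ccng1* and -0.19 to 0.95 for *Gadd45a*. The cause of these changes was not tested. Over all genes the rises and falls in H3.3-KD were 2841 and 1187, and 2118 and 1748 with median-ratio scaling, 1475 and 1556 with the trend removed. In MFN1-KD they were 150 and 286, and 0 and 0 when only the 6 libraries compared were fitted or without control replicate 2 or 3. Whether replicate numbers in the labels pair the samples is not known. Same-numbered deviations correlated at -0.053 to 0.158, but differently numbered ones were not compared, so these values cannot decide it. With the replicate block, *Trp53inp1* in H3.3-KD (adjusted p = 0.0557) and *Mdm2* between the knockdowns (0.0541) no longer passed, *Cdkn1a* between the knockdowns passed (0.0348), and calls in MFN1-KD over all genes fell to 6 and 25. Depth behind FPKM is unknown, which limits what the low values of *Zmat3*, *Gadd45a* and *Btg2* can show.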
